A study of Mus musculus with 8 samples.

Results

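The phagocyte NADPH oxidase is an enzyme that passes electrons from NADPH across a membrane to oxygen and so makes superoxide. The 7 genes described here encode its parts and partners: the membrane subunits Cybb and Cyba, the cytosolic subunits Ncf1 and Ncf4, the small GTPases Rac1 and Rac2, and Nox4, a related oxidase that also pairs with the product of Cyba. They were chosen by gene symbol for this role, with earlier results of these data known. All 7 were found among the 34866 genes of the deposited table. The low-count filter kept 6 of them among the 12480 genes tested and removed Ncf4.

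RNA came from male mice, from the white fat that lies along the epididymis. The control group holds 4 samples of the genotype Aromatase flox/flox, whose alleles of Cyp19a1, the gene for aromatase, are floxed. The knockout group holds 4 samples of the genotype aP2-Cre;Aromatase flox/flox, which carry the same floxed alleles and, in addition, Cre recombinase driven by the promoter of Fabp4, a gene active in adipocytes and also in macrophages. No ages are given in the labels, and mice with the transgene alone were not analysed here, so the transgene and the deletion cannot be told apart. The labels do not say that the samples are separate animals, so p-values measure the spread between these samples, which may be technical. The stated aim was to find genes downstream of adipose Cyp19a1 that act on phosphorus metabolism.

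In a resting phagocyte the catalytic subunit gp91phox (Cybb) sits in the membrane with p22phox (Cyba), which stabilises it. On activation cytosolic subunits, among them p47phox (Ncf1) and p40phox (Ncf4), move from the cytosol to this pair together with a GTP-bound Rac, and superoxide is made. Macrophages and neutrophils carry the full set, Rac2 is largely restricted to blood-derived cells, Rac1 and Cyba are made in most cells, and Nox4 works without the cytosolic subunits and is known from adipocytes, fibroblasts and vessel walls.

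The stretches of DNA before the start sites of Cybb, Ncf1 and Cyba are shown because Cybb and Ncf1 had the largest differences among the members, while Cyba encodes the partner of the Cybb product. Each run is the 250 bases before the RefSeq start site on GRCm38.p6, 5′ to 3′ on the gene's strand. Capitals mark matches, on either strand, to an interferon regulatory factor element, searched as GAAA, any 2 bases and GAAA again.
Cybb, chrX:9469325-9469574, minus strand: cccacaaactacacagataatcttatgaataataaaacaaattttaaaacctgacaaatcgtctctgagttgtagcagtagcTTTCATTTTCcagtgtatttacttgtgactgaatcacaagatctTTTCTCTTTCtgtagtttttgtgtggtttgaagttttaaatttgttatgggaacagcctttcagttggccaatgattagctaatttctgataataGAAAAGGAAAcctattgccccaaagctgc
Ncf1, chr5:134229626-134229875, minus strand: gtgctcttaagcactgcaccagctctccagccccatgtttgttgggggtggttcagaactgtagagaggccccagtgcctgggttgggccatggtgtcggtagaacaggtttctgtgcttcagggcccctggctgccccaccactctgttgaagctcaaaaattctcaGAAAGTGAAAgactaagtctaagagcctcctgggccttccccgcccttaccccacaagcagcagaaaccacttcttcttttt
Cyba, chr8:122432941-122433190, minus strand: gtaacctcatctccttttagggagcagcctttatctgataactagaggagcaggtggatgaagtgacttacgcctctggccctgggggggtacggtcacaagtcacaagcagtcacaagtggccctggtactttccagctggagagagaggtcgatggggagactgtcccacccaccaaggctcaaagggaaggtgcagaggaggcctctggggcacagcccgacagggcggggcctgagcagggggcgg
The Cybb window held 3 such matches, starting 168, 124 and 29 bases before the start site, and the Ncf1 window held 1, starting 82 bases before it. The Cyba and Nox4 windows held none. Of all 32851 windows of this length, 2.98% held at least 1 match. The pattern GAGGAA, one longer form of the sites that the myeloid factor PU.1 binds, was in none of these 4 windows, against 23.3% of all windows. These matches are letters in a window and show no binding. The RefSeq start sites are not always the outer ends of the gene coordinates given below. The Cybb and Nox4 windows lie inside those coordinates. For Cyba, the first transcribed bases after the window were not found in a GENCODE transcript.

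The libraries held 1538427 to 3045488 estimated counts in the control and 2237345 to 3053565 in the knockout group. Levels are given as CPM, counts scaled to a library total of 1000000 after TMM correction for composition, and 3 counts correspond to 0.982 to 1.95 CPM depending on the library. Cyp19a1 itself had 1 to 5.017 estimated counts per control library and 0 to 4 per knockout library (0.994 ± 0.834 against 0.729 ± 0.667 CPM, SD, n = 4, two-sided exact permutation p = 0.629), so the deletion could not be checked at this depth. The difference changed sign without control replicate 3. Genes of the mitochondrial genome took 10.67% to 12.41% of counts among controls and 8.705% to 10.12% among knockouts. The part of that difference in the results here was not tested.

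Of the 6 members tested, Cybb alone passed an adjusted p of 0.05 when knockout was compared with control by the quasi-likelihood test of edgeR, and it rose in the knockout libraries. Over all genes tested 0.168% passed, or 21 genes, 0.12% upward and 0.0481% downward. An unadjusted p under 0.05 was reached by 3 members, Cybb, Ncf1 and Cyba, all upward, where 6.37% of all tested genes reached it and 3.52% did so upward. In 4 members, Cybb, Ncf1, Cyba and Rac1, every knockout library lay above every control library. Over all tested genes the groups did not overlap in 4.17%, and in 2.47% with the knockout higher. All 6 tested members had a log2 fold change above 0, with a median of 0.296, against 49.7% of all tested genes and a median of -0.0015. The members were chosen with earlier results of these data known, so these counts are not independent evidence.

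Cybb, on chromosome X (9435252 to 9487771, GRCm38), encodes the subunit that carries the electron path of the enzyme. Control replicates 1 to 4 read 35.71, 33.21, 31.6 and 31.06 CPM, and the knockout replicates, in the same order, 64.43, 52.73, 75.25 and 64.69 CPM. The control libraries lay close together and the lowest knockout library, replicate 2, was well above the highest control. The means were 32.9 ± 2.09 and 64.3 ± 9.2 CPM (SD, n = 4), a fold of 1.95. On the log2 scale the fitted difference was 0.96 (standard error 0.142, edgeR adjusted p = 0.0099). Of the 12480 tested genes, 119 had a log2 fold change at least as large. Behind these levels stood 49 to 103 estimated counts per control library and 132 to 199 per knockout library. The call depended on the libraries in the fit, while the fitted difference changed little. The adjusted p in edgeR was 0.0605 without control replicate 2 and 0.0714 without control replicate 3, with log2 fold changes of 0.96 and 0.94. In these fits 4 and 10 genes passed over all tested genes, against 21 with all libraries. The adjusted p of Cybb stayed under 0.05 in the other 6 fits that left out 1 library. With the replicate number as a block in edgeR it was 0.0813.

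Cyba (chromosome 8, 122424776 to 122432930) encodes p22phox, the membrane partner of the products of both Cybb and Nox4. Its level read 74.49, 68.13, 75.91 and 65.35 CPM across control replicates 1 to 4, against 80.6, 88.95, 92.89 and 95.29 CPM across the knockouts. The groups did not overlap, but the gap between the highest control and the lowest knockout library was small. The means were 71.0 ± 5.05 and 89.4 ± 6.44 CPM (SD, n = 4). The fitted log2 difference of 0.33 (standard error 0.114) did not pass (edgeR adjusted p = 0.562).

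Ncf1 (chromosome 5, 134220053 to 134229625) encodes p47phox, the organiser that brings the cytosolic subunits to the membrane once it is phosphorylated. Across control replicates 1 to 4 it read 18.03, 11.77, 16.02 and 8.461 CPM, against 35.29, 20.72, 31.03 and 31.27 CPM across the knockouts. Knockout replicate 2 was the lowest knockout library, as it was for Cybb, and still lay above every control library. The means of 13.6 ± 4.29 and 29.6 ± 6.22 CPM (SD, n = 4) gave the largest fitted difference of the members, 1.10 on the log2 scale (standard error 0.247). It did not pass in edgeR (adjusted p = 0.154), but it passed with DESeq2 (adjusted p = 0.0286) and with edgeR when no low-count filter was applied (adjusted p = 0.00535). The control libraries held 13.35 to 52 estimated counts of Ncf1.

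Ncf4 (chromosome 15, 78244801 to 78262580) encodes p40phox, which binds the membrane lipid phosphatidylinositol 3-phosphate. Its estimated counts were 10, 6, 3 and 7 across control replicates 1 to 4, against 8, 9, 16 and 21 across the knockouts. The groups overlapped, with knockout replicates 3 and 4 above the rest. Mean levels were 2.93 ± 1.33 CPM for the controls and 5.05 ± 1.68 CPM for the knockouts (SD, n = 4, two-sided exact permutation p = 0.114, smallest possible 0.0286). With no low-count filter the fitted log2 difference was 0.81 (standard error 0.548, edgeR adjusted p = 0.785). A difference was not detectable at this depth.

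**Figure D1:**
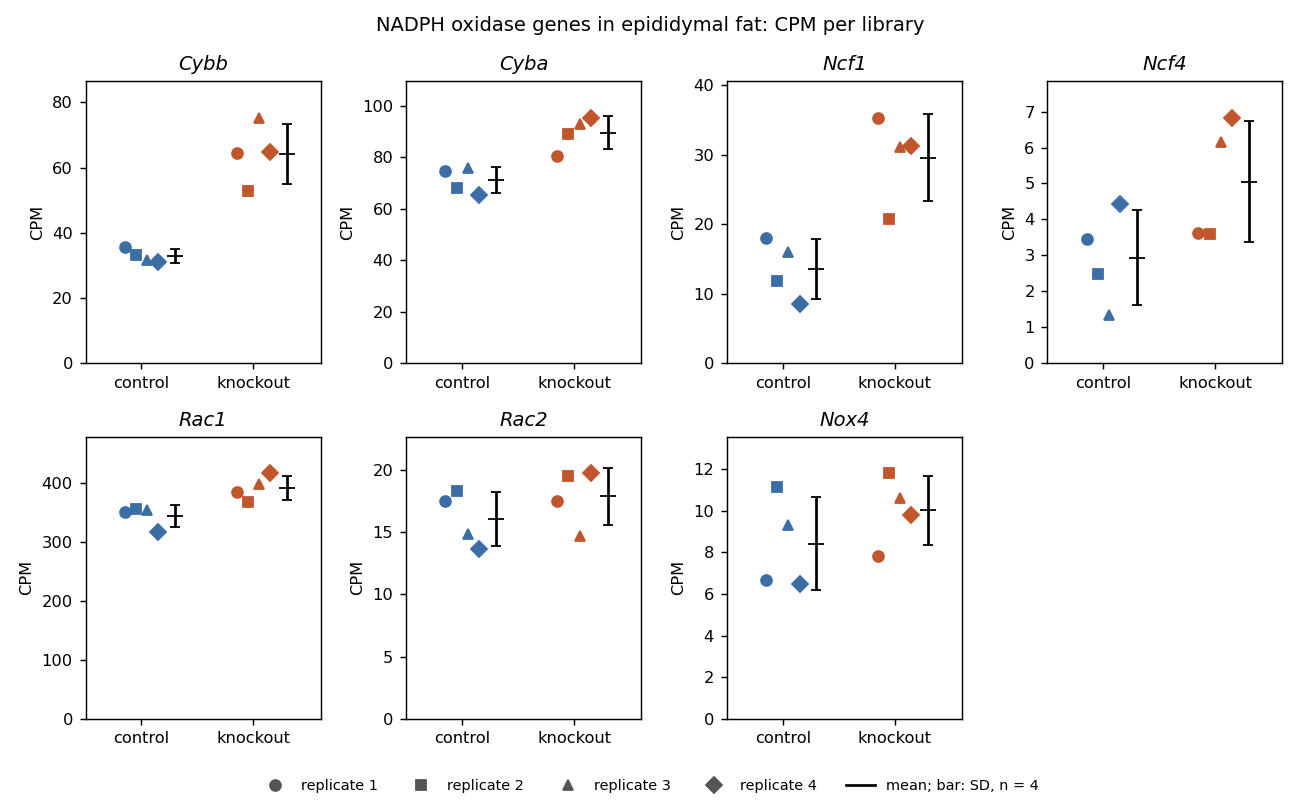
Level of each oxidase gene in CPM (vertical axis, from 0, scaled per gene) in the 4 control and 4 knockout libraries, with 1 point per library, the symbol giving the replicate number, and the mean with its SD beside them. Cybb lay at 31.06 to 35.71 CPM among controls and 52.73 to 75.25 CPM among knockouts, while the groups of Ncf4, Rac2 and Nox4 overlapped.

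The GTPases showed smaller differences. Rac1 (chromosome 5, 143503634 to 143528036), the Rac of most cell types, read 349.6, 355.3, 353.4 and 316.1 CPM across control replicates 1 to 4, against 384.4, 367, 397.4 and 415.5 CPM across the knockouts. The groups did not overlap, and control replicate 4, the smallest library, was the lowest. The fitted log2 difference was 0.19 (standard error 0.103, edgeR adjusted p = 0.842). Its interval, the estimate with 1.96 standard errors on either side, ran from -0.01 to 0.39.

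Rac2 (chromosome 15, 78559167 to 78572783), the Rac of blood-derived cells, read 17.54, 18.31, 14.84 and 13.68 CPM across control replicates 1 to 4, against 17.54, 19.54, 14.73 and 19.75 CPM across the knockouts. The groups overlapped, and knockout replicates 2 and 4 lay above the highest control. The means were 16.1 ± 2.19 and 17.9 ± 2.33 CPM (SD, n = 4), with a log2 fold change of 0.14 (standard error 0.21, edgeR adjusted p = 0.949). The interval from -0.27 to 0.56 does not reach the 0.96 found for Cybb.

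Nox4 (chromosome 7, 87246096 to 87398710), the oxidase that makes mainly hydrogen peroxide, read 6.672, 11.14, 9.346 and 6.505 CPM across control replicates 1 to 4, against 7.854, 11.81, 10.63 and 9.8 CPM across the knockouts. The groups overlapped, and replicate 2 was the highest library in each. The fitted log2 difference was 0.26 (standard error 0.306, edgeR adjusted p = 0.942), with an interval from -0.34 to 0.86. With 10.26 to 30.15 estimated counts per library, a moderate difference in either direction could not be detected.

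**Figure D2:**
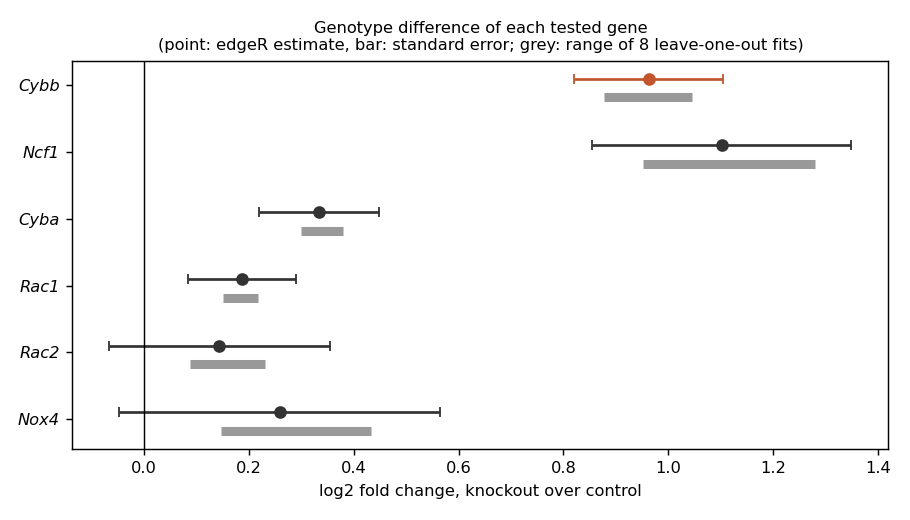
Log2 fold change of knockout over control (horizontal axis) for the 6 tested members, with the edgeR estimate as a point, its standard error as a bar and the range of the 8 fits that left out 1 library in grey. Cybb at 0.96 and Ncf1 at 1.10 lay apart from the other genes, which lay between 0.14 and 0.33, and Cybb, in colour, was the only one with an adjusted p under 0.05.

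The members were then compared with each other within each library, as the difference of 2 genes in log2 CPM. Of 15 pairs among the 6 tested members, 4 did not overlap between the genotypes: Cybb against Cyba, Rac1 and Rac2, and Ncf1 against Rac1. All 4 hold Cybb or Ncf1, so they reuse the differences of these genes and are not separate results. The comparison was chosen after the data were seen, and the share of such pairs over all genes was not computed. Cybb minus Rac2 was 0.998 ± 0.121 for the controls and 1.795 ± 0.382 for the knockouts, and Cybb minus Cyba was -1.09 ± 0.105 and -0.481 ± 0.211 (log2 CPM, SD, n = 4). Each of the 4 had the smallest p the design allows, 0.0286 in a two-sided exact permutation test, and an adjusted p of 0.107 over the 15 pairs. Cybb minus Ncf1 was 1.29 ± 0.422 and 1.11 ± 0.212 (SD, n = 4), with an exact permutation p of 0.457 (adjusted p = 0.623). After adjustment no pair passed. As 4 pairs at the smallest possible p still had an adjusted p of 0.107, a few pairs could not pass, however large their differences.

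Some macrophage markers were also higher in the knockout libraries. The list of markers was drawn up with earlier results of these data known. Of 15 markers listed, 14 were tested, 12 had a log2 fold change above 0 and 2 passed, the lysosomal glycoprotein gene Cd68 (1.13 on the log2 scale, edgeR adjusted p = 0.0156) and the lysozyme gene Lyz2 (0.85, edgeR adjusted p = 0.00776). An unadjusted edgeR p under 0.05 was reached upward by 8 tested markers, and in 5 every knockout library lay above every control library. Over all tested genes these shares were 3.52% and 2.47%. The median log2 fold change of the tested markers was 0.324, against -0.0015 over all tested genes. Their summed level was 1083 to 1202 CPM among controls and 1469 to 1913 CPM among knockouts, without overlap, and none was at 0 in all libraries. Lyz2 made up much of this sum, with means of 375.5 and 675.7 CPM. Without Lyz2, an alternative chosen after seeing the data, the sums were 731.5 to 841.8 and 840.1 to 1122 CPM and overlapped (two-sided exact permutation p = 0.0571). Cd163 (-0.19) and Mertk (-0.06) had a log2 fold change below 0, and Fcgr1, which was not tested, averaged 4.75 CPM over the controls and 2.89 CPM over the knockouts. The macrophage surface receptor gene Adgre1 was at 12.04 to 24.48 CPM and at 24.5 to 30.71 CPM (log2 fold change 0.46, edgeR adjusted p = 0.771). In bulk tissue, more cells of a type and more RNA per cell cannot be told apart.

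The summed levels of the other cell types overlapped between the genotypes, narrowly so for dendritic cells. Neutrophils also carry the oxidase, but of 11 neutrophil markers 2 passed the low-count filter, and Ly6g, Ltf and Ngp were at 0 in all 8 libraries. The summed neutrophil level was 35.92 to 39.82 CPM among controls and 34.54 to 49.87 CPM among knockouts, most of it from Cxcr2. The dendritic cell markers summed to 37.05 to 39.16 and 39.03 to 56 CPM, and of these Itgax, an integrin chain also made by macrophages, did not overlap (log2 fold change 1.47, edgeR adjusted p = 0.418). The sums were 4.263 to 9.361 and 3.757 to 24.26 CPM for the B cell markers and 6.862 to 13.37 and 7.674 to 14.56 CPM for the T cell markers. For Nox4, the adipocyte (18750 to 27810 and 14140 to 25330 CPM), mural (512.2 to 610.7 and 480.4 to 653.4 CPM), endothelial (423 to 855.1 and 616.8 to 823.9 CPM) and fibroblast (2985 to 3603 and 3191 to 3988 CPM) sums overlapped between the genotypes. The mesothelial sums (44.38 to 77.21 and 21.88 to 81.27 CPM) overlapped as well, and 5 epididymis markers summed to at most 3.736 CPM among controls and 8.447 CPM among knockouts, with Crisp1 and Lcn5 at 0 throughout. The adipocyte marker Adipoq averaged 2768 CPM over the controls and 2824 CPM over the knockouts, so the labelled tissue's own marker was abundant in each group.

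Each member was next expressed relative to the macrophage markers, as its log2 CPM minus the mean log2 CPM of the 15 markers in the same library. That mean itself was 5.54 ± 0.138 for the controls and 5.84 ± 0.127 for the knockouts (SD, n = 4, two-sided exact permutation p = 0.0286). Cybb relative to it was -0.478, -0.343, -0.621 and -0.409 across control replicates 1 to 4, against 0.299, -0.161, 0.511 and 0.046 across the knockouts. The knockout libraries all lay above the control libraries on this scale too, a difference of 0.637 (exact permutation p = 0.0286, adjusted p = 0.171 over 6 members). Ncf1 differed by 0.817, with 3 of 4 knockout libraries above the highest control (exact permutation p = 0.0571, adjusted p = 0.171).

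The other members differed less on this relative scale. Cyba differed by 0.027, Rac1 by -0.117, Rac2 by -0.161 and Nox4 by -0.043. Their exact permutation tests gave adjusted p-values from 0.429 to 0.886. The values moved with the reference. The summed CPM of the markers came in large part from Lyz2. Against the log2 of this sum, Rac1 differed by -0.317 and Rac2 by -0.36, each with every knockout library below every control library (exact permutation p = 0.0286, adjusted p = 0.0572). On that scale Cybb differed by 0.437, again without overlap (exact permutation p = 0.0286, adjusted p = 0.0572), and Ncf1 by 0.617 (exact permutation p = 0.114, adjusted p = 0.137). Against the mean of 9 of the 15 markers, Lyz2 not among them, Rac1 differed by -0.019 and Rac2 by -0.062. Both overlapped (exact permutation p = 0.914 and 0.629). There Cybb differed by 0.735 and Ncf1 by 0.915, each without overlap (exact permutation p = 0.0286, adjusted p = 0.0858). The sign of Cyba changed with the summed reference and that of Nox4 with 9 of the markers. No member passed after adjustment on any of these 3 scales. On the summed scale Cybb, Rac1 and Rac2 all had the smallest exact permutation p possible, and adjustment still gave 0.0572. A few members alone could therefore not pass, however large their difference, so this outcome does not decide whether they differed.

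**Figure D3:**
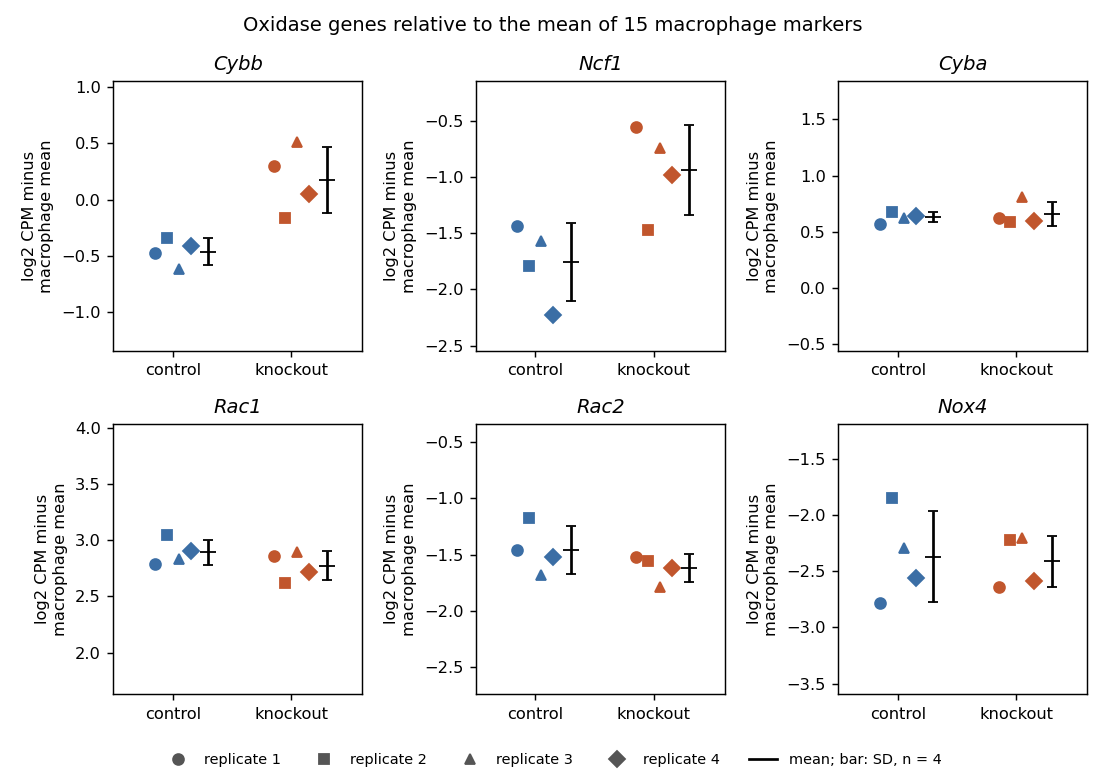
Log2 CPM of each tested member minus the mean log2 CPM of 15 macrophage markers in the same library (vertical axis, the same span in each panel), with 1 point per library and the mean with its SD. The knockout libraries lay above the control libraries for Cybb, 3 of 4 did so for Ncf1, and the groups of Cyba, Rac1, Rac2 and Nox4 overlapped.

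Genes that work with the oxidase were read from lists drawn up with earlier results of these data known. None of their tested genes passed in edgeR. The counts of all these lists stand against shares over all tested genes. There, 49.7% had a log2 fold change above 0 and 3.52% were higher at an unadjusted p under 0.05. In 2.47% the groups did not overlap, with the knockout higher. Among 18 activators, the kinases, integrins, receptors and other proteins that lead to assembly, 17 were tested and 15 had a log2 fold change above 0, with a median of 0.243; 2 were higher and 1 lower at an unadjusted p under 0.05. Fcgr1, the one not tested, is also among the macrophage markers. The smallest p belonged to Itgb2, the common chain of the leukocyte integrins. Itgb2 read 16.64, 7.887, 14.69 and 8.874 CPM across control replicates 1 to 4, against 24.2, 24.52, 25.49 and 25.36 CPM across the knockouts. The knockout libraries were nearly equal and above all control libraries (log2 fold change 1.02, standard error 0.243, edgeR adjusted p = 0.222). Its partner chain Itgam, named after its values were seen, differed by 0.62 on the log2 scale (edgeR adjusted p = 0.616), again with no overlap between the groups. The activator that was lower was Pak2, also named after its values were seen. Pak2 lay at 191.4 to 273 CPM among controls and at 166.6 to 192.8 CPM among knockouts, with overlap. The fitted difference of Pak2 was -0.38 in log2 units, with an unadjusted edgeR p of 0.00777, smaller than the 0.0137 of Itgam. After adjustment the p of Pak2 in edgeR was 0.5.

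Of 20 genes for Rac exchange factors, inhibitors, GTPase-activating proteins and related GTPases, 19 were tested, 16 had a log2 fold change above 0 and the median was 0.183. Here 3 were higher and 0 lower at an unadjusted p under 0.05, and Dock2, the leukocyte exchange factor for Rac, had the smallest p. Dock2 lay at 10.78 to 18.72 CPM among controls and at 19.96 to 26.77 CPM among knockouts, without overlap (log2 fold change 0.74, edgeR adjusted p = 0.428). Among 9 transcription factors of myeloid oxidase genes the median was 0.034, with 5 above 0 and 4 below. At an unadjusted p under 0.05, 2 were higher, Spi1 and Nfkb1, and 0 lower, and the groups of both did not overlap. Spi1, which encodes PU.1, had the smallest p, at 15.21 to 22.19 and 23.42 to 39.95 CPM (log2 fold change 0.79, edgeR adjusted p = 0.333). Spi1 was highest in knockout replicate 2, at 39.95 CPM, followed by replicate 1 at 37.2 CPM. Among the knockouts Cybb was lowest in replicate 2, and a link between these genes was not tested.

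The 12 genes that remove superoxide and peroxide were all tested, and 9 had a log2 fold change below 0, with a median of -0.057. None had an unadjusted p under 0.05, and the catalase gene Cat had the smallest p, at 587 to 769.1 CPM among controls and 555.9 to 625.2 CPM among knockouts (log2 fold change -0.21, edgeR adjusted p = 0.844). Of 10 other genes of the oxidase family, 2 were tested and both were above 0, with a median of 0.262. The smaller p was that of the proton channel gene Hvcn1 (log2 fold change 0.40, edgeR adjusted p = 0.91). The other 8, among them Nox1, Nox3 and the dual oxidases, were below the low-count filter, and Nox3 was at 0 in all libraries.

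**Figure D4:**
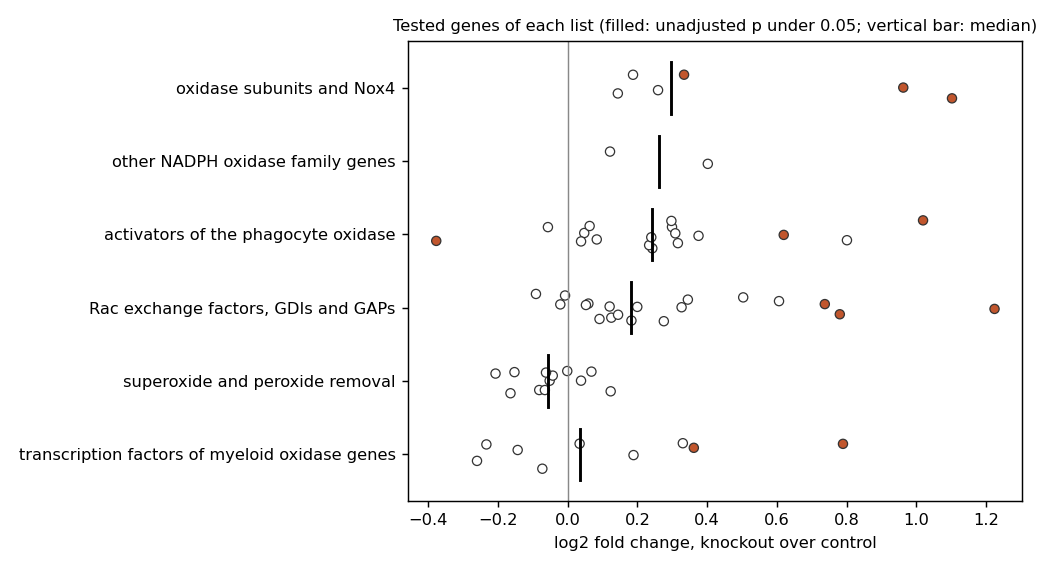
Log2 fold change of knockout over control (horizontal axis) for each tested gene of the members and of 5 lists, with filled points at an unadjusted p under 0.05 and a vertical bar at the median of each list. The medians ran from -0.057 for superoxide and peroxide removal to 0.296 for the members.

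The genes with the profile most like that of Cybb were sought among tested genes with a mean of at least 20 CPM, by the root mean square difference in log2 CPM over the 8 libraries after centring each gene. The 4 nearest were Gas7, a regulator of the actin skeleton (0.121), the complement C3a receptor gene C3ar1 (0.128), the actin-oxidising enzyme gene Mical2 (0.153) and the integrin-linked adaptor gene Apbb1ip (0.162). Any genotype difference was part of the profile by which these genes were picked, so no test of it is given. For Nox4 the nearest were the Notch ligand gene Jag1 (0.118), R3hcc1 (0.13), the heparan sulfate enzyme gene Hs6st1 (0.144) and Nkap (0.145).

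Sequence shared with other genes was counted over whole transcripts, and where it lies relative to the sequenced 3′ end was not examined. In the GENCODE M21 transcripts, Cybb and Ncf4 shared no word of 31 bases with any other gene of the table. Nox4 shared 26 of 8519 words, Rac1 26 of 4494, Ncf1 28 of 3688, Cyba 68 of 1069, with 526 genes, and Rac2 122 of 3101, with 483 genes. The longest run of A in any member was 17 bases, in Cybb.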

How the data were processed

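BRB-seq libraries, a method that reads the 3′ end of transcripts primed with oligo-dT, were made from total RNA of 8 samples, per the labels' protocols. The authors deposited estimated counts per gene, not normalized; Salmon and GRCm38 are named in the submitters' processing notes, and the version, annotation and use of molecular identifiers are not given in the sources used here. Gene identifiers were matched without version to symbols for 34582 of 34866 genes, and coordinates are those of GENCODE M21. Promoter windows were matched for Cybb, Cyba, Ncf1 and Nox4 and come from RefSeq.

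Estimated counts were rounded and tested with edgeR 4.0.16 (R 4.3.3; TMM factors, filterByExpr, robust quasi-likelihood F test, genotype as the only term), with Benjamini-Hochberg adjustment over 12480 genes and a threshold of 0.05. Log2 CPM used a prior count of 2. Single values were compared by two-sided exact permutation in scipy 1.17.1, which cannot go below 0.0286 for 4 against 4. Floors cover counting error only. Standard errors were derived from the F statistic. Alternatives were RLE factors, no low-count filter, DESeq2 1.42.0, limma-voom (limma 3.58.1) with quality weights, the replicate number as a block, and leaving out each library; the macrophage scale was also recomputed from summed CPM and from 9 markers. Comparisons of pairs of members, leaving out libraries in them, and the macrophage sum without Lyz2 were chosen after seeing the data. The scripts were tested on simulated data. Within groups, pairs of libraries differed by more than sampling noise (chi-square per degree of freedom 4.48 to 9.4 over genes with at least 20 counts), so none was a copy of another. Each was counted as 1 sample, but this does not show that they came from separate animals. The members and lists were chosen with earlier results of these data known. Named genes are the members, Cyp19a1, genes of the pathway lists that passed or otherwise the smallest p of each list, lead markers of cell types, and the 4 nearest profiles to Cybb and Nox4; other names were added after their values were seen. 1 gene that this choice would have named is not reported here.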

Additional observations from a re-analysis of the deposited data

Results flagged for a closer look

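Each group of 4 libraries was searched for a lone high or low value, one whose distance from its neighbour took up more of the range than Dixon's 95% critical value allows. Of 30 groups examined, 3 held such a library, and chance gives about 1 in 20, or 1.5. In control replicate 4 Rac1 read 316.1 CPM, and the other controls read 349.6 to 355.3 CPM; without that library its log2 fold change was 0.15 in place of 0.19. In control replicate 3 Cyp19a1 read 2.233 CPM from 5.017 estimated counts, and the other controls read 0.415 to 0.694 CPM. Cyba relative to the macrophage markers was 0.812 in knockout replicate 3, against 0.587 to 0.621 in the other knockout libraries, and without it the difference between the genotypes was -0.025 in place of 0.027.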

How the results depend on the processing

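RLE factors and limma-voom kept Cybb as the only member past the threshold. The number of members past it was 2 without the low-count filter and with DESeq2 (Cybb and Ncf1), 0 with the replicate number as a block, and 0 to 1 when 1 library was left out, with 0 without control replicate 2 or 3. Under the block the log2 fold change of Cybb was 0.96 (edgeR adjusted p = 0.0813); over its other alternatives the adjusted p ran from 4.91e-05 to 0.0714. After the group means were taken out, control and knockout libraries with the same number correlated at 0.25, -0.0624, -0.00578 and -0.241. The labels give only the number, and these values do not settle whether such libraries were paired.

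The number of genes past the threshold, 21 (15 higher, 6 lower), was 58 without the filter (37 higher, 21 lower), 55 with DESeq2 (28 higher, 27 lower) and 6 with the block (4 higher, 2 lower). Leaving out 1 library gave 4 to 43 genes (3 to 18 higher, 1 to 25 lower): 12, 4, 10 and 43 without control replicates 1 to 4, and 9, 13 and 13 without knockout replicates 1, 2 and 4. The cause was not tested.

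Among members the fold changes kept their sign in all of these fits. The log2 ratio of mean CPM of Ncf4, 0.784, ran from 0.543 to 1.054 when 1 library was left out. Relative to macrophage markers, Cyba changed sign with summed CPM (-0.173) and Nox4 with 9 markers (0.056); when 1 library was left out they ran from -0.025 to 0.05 and from -0.179 to 0.133, while Cybb ran from 0.524 to 0.748 and Ncf1 from 0.66 to 0.995. With summed CPM the values were 0.437 for Cybb, 0.617 for Ncf1, -0.317 for Rac1 and -0.36 for Rac2. With 9 markers they were 0.735, 0.915, -0.019 and -0.062 in the same order. With the block, the Cybb and Ncf1 differences had an exact p of 0.125, the smallest that 4 pairs allow. Leaving out 1 library, no exact test can go below 0.0571, and the 5 pair differences tried kept their sign. Depth limits Ncf4, Nox4 and Cyp19a1 most.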

Other observations

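Of the genes below the low-count filter or outside the named set, 3 were picked after their values were seen. Duox2, a dual oxidase of epithelia, had 0 estimated counts in all 4 control libraries and 3, 6, 2 and 7 across knockout replicates 1 to 4. Camp, which encodes the neutrophil granule peptide cathelicidin, had 10, 7, 5 and 5 estimated counts across control replicates 1 to 4, against 0, 0, 4 and 1 across the knockouts. Itgax, the integrin chain of dendritic cells and of macrophages in inflamed fat, had means of 4.13 ± 2.24 CPM for the controls and 11.7 ± 3.66 CPM for the knockouts (SD, n = 4). Its fitted log2 difference was 1.47 (standard error 0.425, edgeR adjusted p = 0.418), and the groups did not overlap.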
